A study of Mus musculus with 6 samples.

Results

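The genes described here are 10 genes of the primary granule and of the promyelocyte, the stage of neutrophil development that fills this granule. They were chosen by gene symbol from the annotation of the array. The members are the enzyme genes Mpo, Elane, Prtn3, Ctsg and Prss57, the lectin gene Fcnb, the membrane protein gene Ms4a3, the inhibitor gene Serpinb1a, and the transcription factor genes Gfi1 and Cebpe. They are 10 of 19938 genes with a probe set of their own and 10 of the 12029 that passed a filter on low signal. Each had 1 probe set, and each passed that filter in both groups.

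The series measured RNA of whole, flushed bone marrow from the femur and tibia shafts of male mice on 6 Affymetrix arrays. The 3 diabetic arrays carried the genotype label BKS.Cg-Dock7m -/- Leprdb/JNju, and the 3 wild type arrays BKS.Cg-Dock7m +/+ Leprdb/JNju, all at 10 weeks of age and with no treatment. The db allele of Lepr, the gene of the leptin receptor, gives obesity and type 2 diabetes in homozygous mice. Both labels spell out the same strain name, including Dock7m and Leprdb, and the signs alone tell the groups apart. Which allele the signs refer to is not stated. The labels do not say whether an array held 1 animal or a pool, so the p-values speak only for the spread among these arrays. Signals were summarised by RMA (robust multi-array average) and are on a log2 scale, on which a difference of 1 is a doubling. Array medians ran from 7.67 to 7.73, and the precision is limited by having only 3 arrays in each group.

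Neutrophils are made in the marrow from granulocyte-monocyte progenitors, which become myeloblasts and then promyelocytes. Promyelocytes make the primary, or azurophil, granule and load it with myeloperoxidase and serine proteases. Transcription of these genes stops at the next stage, the myelocyte, where the secondary granule with lactoferrin begins to form. PU.1, C/EBP factors, MYB and RUNX1 drive the primary granule genes, while Gfi1 represses other fates and Cebpe is needed for the step to the secondary granule.

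Promoter sequences were found for 7 of the 10 members in the RefSeq table of build GRCm38.p6, none for Cebpe, Prss57 or Serpinb1a. Of these, 4 are shown, as stretches of the gene strand from 250 bases before the start of the gene to 50 after it. Elane and Prtn3 are shown because they are adjacent on chromosome 10, Mpo because it is the defining enzyme, and Ms4a3 because it had the widest range of the members within a group. Capitals mark GAGGAA, the core of the PU.1 site, TTNNGNAA, a form of the C/EBP site, and TGTGGT, the RUNX site, each searched on both strands. Adjacent matches run together.
Mpo promoter, chr11:87793534-87793833, plus strand: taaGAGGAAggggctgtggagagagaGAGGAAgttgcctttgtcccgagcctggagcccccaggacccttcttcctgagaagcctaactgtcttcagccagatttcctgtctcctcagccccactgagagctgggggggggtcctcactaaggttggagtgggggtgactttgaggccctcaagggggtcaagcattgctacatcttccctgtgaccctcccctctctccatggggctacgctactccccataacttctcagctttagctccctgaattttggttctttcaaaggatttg
Elane promoter, chr10:79886062-79886361, plus strand: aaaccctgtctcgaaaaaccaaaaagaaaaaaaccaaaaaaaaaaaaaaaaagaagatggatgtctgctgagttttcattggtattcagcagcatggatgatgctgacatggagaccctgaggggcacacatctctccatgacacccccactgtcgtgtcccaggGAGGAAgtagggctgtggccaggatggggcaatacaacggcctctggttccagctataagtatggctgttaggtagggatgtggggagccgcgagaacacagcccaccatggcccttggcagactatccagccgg
Prtn3 promoter, chr10:79879417-79879716, plus strand: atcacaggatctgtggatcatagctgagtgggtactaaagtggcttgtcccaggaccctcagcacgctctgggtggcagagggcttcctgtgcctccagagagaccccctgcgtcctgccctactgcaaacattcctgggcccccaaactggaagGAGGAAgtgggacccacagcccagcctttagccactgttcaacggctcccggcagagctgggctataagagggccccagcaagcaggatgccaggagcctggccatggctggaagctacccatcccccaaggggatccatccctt
Ms4a3 promoter, chr19:11640802-11641101, minus strand: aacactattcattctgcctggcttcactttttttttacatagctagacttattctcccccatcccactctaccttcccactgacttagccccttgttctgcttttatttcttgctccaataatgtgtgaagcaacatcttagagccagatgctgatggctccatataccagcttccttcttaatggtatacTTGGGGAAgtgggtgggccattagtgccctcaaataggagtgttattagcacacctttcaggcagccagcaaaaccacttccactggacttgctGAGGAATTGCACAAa

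GAGGAA was present in 5 of the 8 member promoters (Gfi1 has 2), those of Prtn3, Elane, Mpo, Ctsg and Ms4a3, against 28.3% of all 32851 promoters in the table. It began 85 bases before the start of Elane and 95 bases before that of Prtn3. Both also held AACNG, the core of the MYB site, at 50 and 55 bases before the start. That short motif was in 80.3% of all promoters and is not marked. TTNNGNAA was in 3 member promoters, those of Fcnb, Gfi1 and Ms4a3, against 40.7% of all, and in Ms4a3 a match followed directly on GAGGAA after the start. TGTGGT was in 1, that of Ctsg, against 16.8% of all. Related factors share these letters, and a match of letters is only a description of the sequence.

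Diabetic and wild type marrow were compared to ask whether the primary granule program differed in diabetes. Genes were tested with limma, with p-values adjusted by the Benjamini-Hochberg (BH) method over all 12029 genes. None of the 10 members passed a BH-adjusted p of 0.05, where 0.432% of all 12029 genes did, 0.0998% as higher in diabetic marrow. Before adjustment, 1 member had a p under 0.05, Serpinb1a, higher in diabetic marrow, where 7.18% of all genes passed and 3.98% were higher. The member changes ran from -0.10 for Prtn3 to 0.33 for Serpinb1a on the log2 scale. Their median was 0.062, beside 0.0046 for all genes tested, with 6 members above 0 and 4 below, beside 6296 and 5733 of all genes. In bulk marrow, fewer cells of a type and less RNA per cell cannot be told apart.

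The peroxidase and the serine proteases, the defining cargo of the granule, differed little in mean between the groups. Their log2 changes ran from -0.10 for Prtn3 to 0.12 for Ctsg. Mpo, which makes hypochlorous acid from hydrogen peroxide and chloride (probe set 10380174, chromosome 11), had log2 signals of 13.49, 13.27 and 13.49 in diabetic marrow, against 13.41, 13.47 and 13.47 in wild type marrow. The wild type arrays lay inside the range of the diabetic ones. The log2 change of Mpo was -0.03 ± 0.08 (SE, n = 3 per group), with a 95% interval of -0.21 to 0.14 and a BH-adjusted p of 0.989 in limma.

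Elane encodes neutrophil elastase, which digests elastin and bacterial proteins (probe set 10364535, chromosome 10). Its log2 signals were 13.66, 13.36 and 13.73 in diabetic marrow, against 13.55, 13.67 and 13.67 in wild type marrow. Diabetic replicate 2 was the lowest of the 6 arrays and replicate 3 the highest. The log2 change of Elane was -0.05 ± 0.10, with an interval of -0.28 to 0.18. Prtn3, proteinase 3, is a close relative of elastase and the autoantigen of a human vasculitis (probe set 10364529). Its log2 signals were 12.35, 11.88 and 12.24 in diabetic marrow, against 12.04, 12.39 and 12.35 in wild type marrow. Here 1 array of each group, diabetic replicate 2 and wild type replicate 1, stood below the others. The log2 change of Prtn3 was -0.10 ± 0.14, with an interval of -0.42 to 0.22.

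Ctsg, cathepsin G, a protease with chymotrypsin-like cutting (probe set 10420261, chromosome 14), had log2 signals of 12.42, 12.03 and 12.30 in diabetic marrow, against 12.10, 12.18 and 12.13 in wild type marrow. The wild type values again lay inside the diabetic range. The log2 change of Ctsg was 0.12 ± 0.10, with an interval of -0.11 to 0.34. Prss57, neutrophil serine protease 4, cuts after arginine (probe set 10370644, chromosome 10). Its log2 signals were 9.60, 9.28 and 9.58 in diabetic marrow, against 9.33, 9.44 and 9.67 in wild type marrow. The groups overlapped over most of their range, and the log2 change of Prss57 was 0.01 ± 0.12, with an interval of -0.26 to 0.27. The BH-adjusted p in limma ran from 0.935 for Ctsg to 0.997 for Prss57 over these 4 proteases. Fcnb, ficolin B, a myeloid lectin that binds sugars on microbes and starts the lectin pathway of complement (probe set 10481262, chromosome 2), had log2 signals of 11.88, 11.49 and 11.81 in diabetic marrow, against 11.70, 11.74 and 11.80 in wild type marrow. Its log2 change was -0.02 ± 0.10, with an interval of -0.26 to 0.22.

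**Figure D1:**
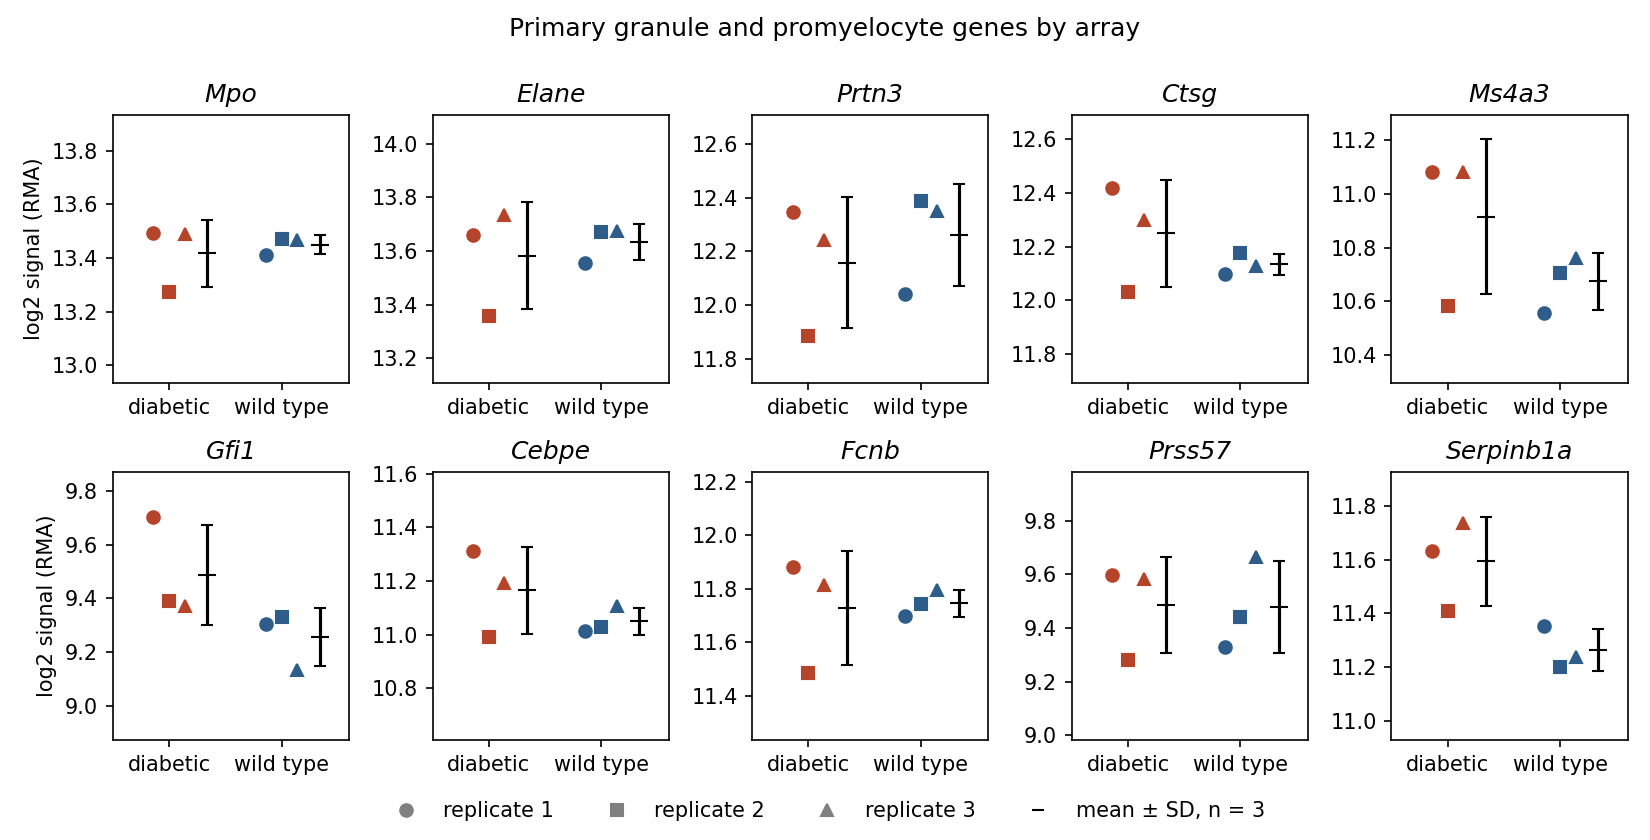
Log2 RMA signal of the 10 genes on each array, diabetic left and wild type right, with marker shape for the replicate number and bars for the mean ± SD (n = 3). Every panel spans 1 log2 unit. Diabetic replicate 2 (square) is the lowest diabetic array for 9 genes, and the groups are separate only for Gfi1 and Serpinb1a.

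Serpinb1a had the largest difference of the 10. It encodes an inhibitor that sits in the cytoplasm and nucleus of neutrophils and blocks elastase, proteinase 3 and cathepsin G, so it is the counterpart of the proteases rather than granule cargo (probe set 10408557, chromosome 13). Its log2 signals were 11.63, 11.41 and 11.74 in diabetic marrow, against 11.35, 11.20 and 11.24 in wild type marrow. The lowest diabetic array stood 0.06 above the highest wild type array. Serpinb1a had a log2 change of 0.33 ± 0.09 (SE, n = 3 per group), or 1.26-fold, with a 95% interval of 0.12 to 0.55. Its unadjusted p was 0.0076 and its BH-adjusted p in limma 0.430, so it did not pass. Leaving out each array in turn gave 0.26 to 0.42. Its relatives Serpinb1b and Serpinb1c stood at the 15.0 and 9.13 percentiles of the named probe sets, below the level filter. Fitted with all 19938 genes, their log2 changes were -0.06 ± 0.11 and 0.03 ± 0.09.

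The pair of transcription factors gave smaller differences. Gfi1, a zinc finger repressor without which neutrophils do not form (probe set 10532124, chromosome 5), had log2 signals of 9.70, 9.39 and 9.37 in diabetic marrow, against 9.31, 9.33 and 9.13 in wild type marrow. All diabetic values were above the wild type ones, by 0.04 at the closest, and diabetic replicate 1 stood above the other diabetic arrays. The log2 change of Gfi1 was 0.23 ± 0.10, with an interval of -0.01 to 0.47 and a BH-adjusted p of 0.705 in limma. Without diabetic replicate 1 its change was 0.12. Groups without overlap were seen for 2 of 10 members, Gfi1 and Serpinb1a, both with diabetic marrow above, against 12.4% of all genes tested, and 6.97% with diabetic marrow above. Cebpe, C/EBP epsilon (probe set 10419850, chromosome 14), had log2 signals of 11.31, 10.99 and 11.19 in diabetic marrow, against 11.01, 11.03 and 11.11 in wild type marrow. These overlapped, and the log2 change of Cebpe was 0.12 ± 0.09, with an interval of -0.09 to 0.32.

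Ms4a3, a membrane protein with 4 spans that marks granulocyte-monocyte progenitors in the mouse (probe set 10466224, chromosome 19), had log2 signals of 11.08, 10.58 and 11.08 in diabetic marrow, against 10.56, 10.70 and 10.76 in wild type marrow. Diabetic replicates 1 and 3 were above all wild type arrays, while diabetic replicate 2 was among them. The log2 change of Ms4a3 was 0.24 ± 0.14, or 1.18-fold, with an interval of -0.08 to 0.56 and a BH-adjusted p of 0.854 in limma. Leaving out 1 diabetic array gave a change of 0.16, 0.41 and 0.16 without replicates 1, 2 and 3, with BH-adjusted p values in limma of 0.999, 0.233 and 0.997.

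**Figure D2:**
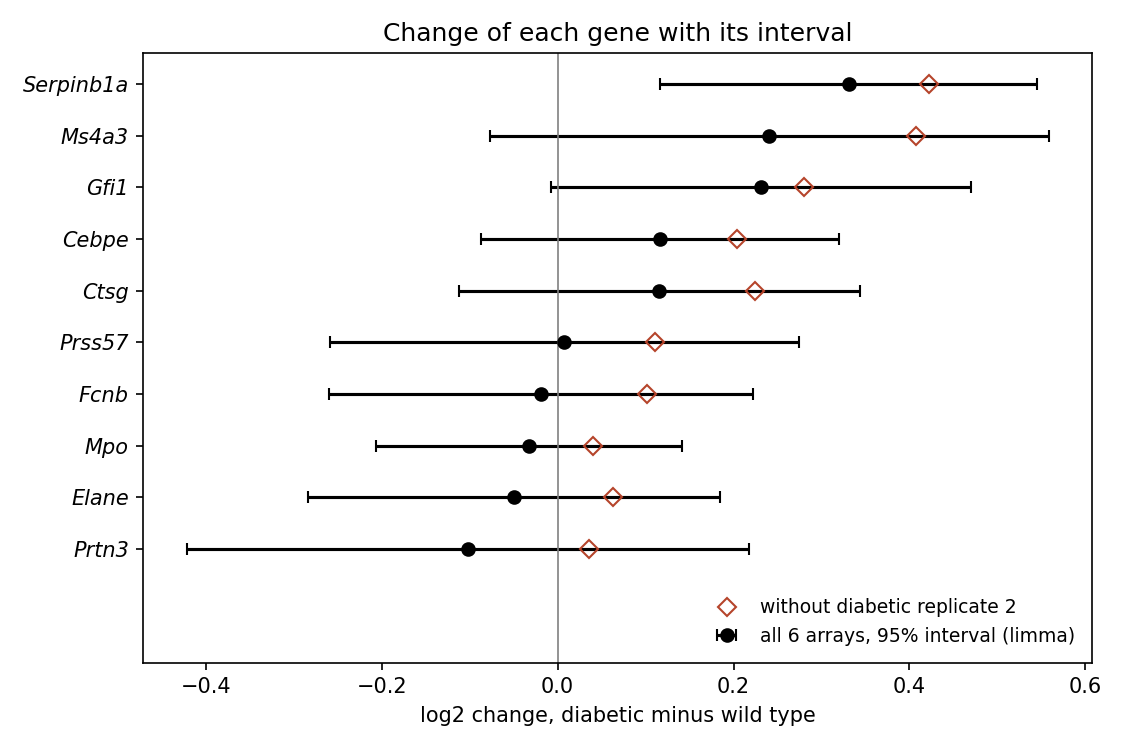
Log2 change of each gene, diabetic minus wild type, with its 95% interval from limma (black), and the same difference without diabetic replicate 2 (open diamonds). All intervals but that of Serpinb1a, 0.12 to 0.55, include 0 before adjustment, and every diamond lies to the right of its point.

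The members moved largely together from array to array. Diabetic replicate 2 was the lowest of the 6 arrays for 7 members, and the lowest diabetic array for 9, with Gfi1 the exception. Its difference from the mean of the other diabetic arrays ran from -0.50 (Ms4a3) to -0.15 (Gfi1), with a median of -0.32, where the median over all genes tested was -0.015. The median range over the 3 diabetic arrays was 0.35 for the members, beside 0.15 for all genes, and over the 3 wild type arrays it was 0.14, beside 0.17 for all genes. The range was larger in diabetic marrow for 9 members, all but Prss57. In wild type marrow, replicate 1 was the lowest for 8 members, with Gfi1 and Serpinb1a the exceptions.

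The neutrophil lists were also low on diabetic replicate 2, while erythroid and cycling cell markers were high on it among the diabetic arrays. With each gene centred over the 6 arrays, the members averaged 0.18, -0.17 and 0.12 on the diabetic arrays and -0.10, -0.02 and -0.0044 on the wild type arrays. Promyelocyte and early myeloid genes averaged 0.09, -0.12 and 0.06 on the diabetic arrays and -0.06, 0.05 and -0.01 on the wild type arrays. Mature neutrophil markers averaged 0.17, -0.10 and 0.13 on the diabetic arrays and -0.08, 0.04 and -0.15 on the wild type arrays. Secondary and tertiary granule genes averaged 0.12, -0.11 and 0.18 on the diabetic arrays and -0.10, -0.03 and -0.07 on the wild type arrays. Erythroid markers averaged -0.10, 0.22 and -0.05 on the diabetic arrays and -0.27, -0.11 and 0.30 on the wild type arrays, so diabetic replicate 2 was the highest diabetic array for them. In wild type marrow, replicate 1 was the lowest array both for the members and for the erythroid markers. Cycling cell markers averaged -0.05, 0.10 and -0.15 on the diabetic arrays and -0.11, -0.03 and 0.24 on the wild type arrays. T and NK cell markers averaged -0.14, -0.20 and 0.18 on the diabetic arrays, so they too were lowest on replicate 2. B lineage markers averaged -0.14, -0.0081 and -0.38 there, highest on replicate 2. The part of the cell mixture in the member values was not tested.

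**Figure D3:**
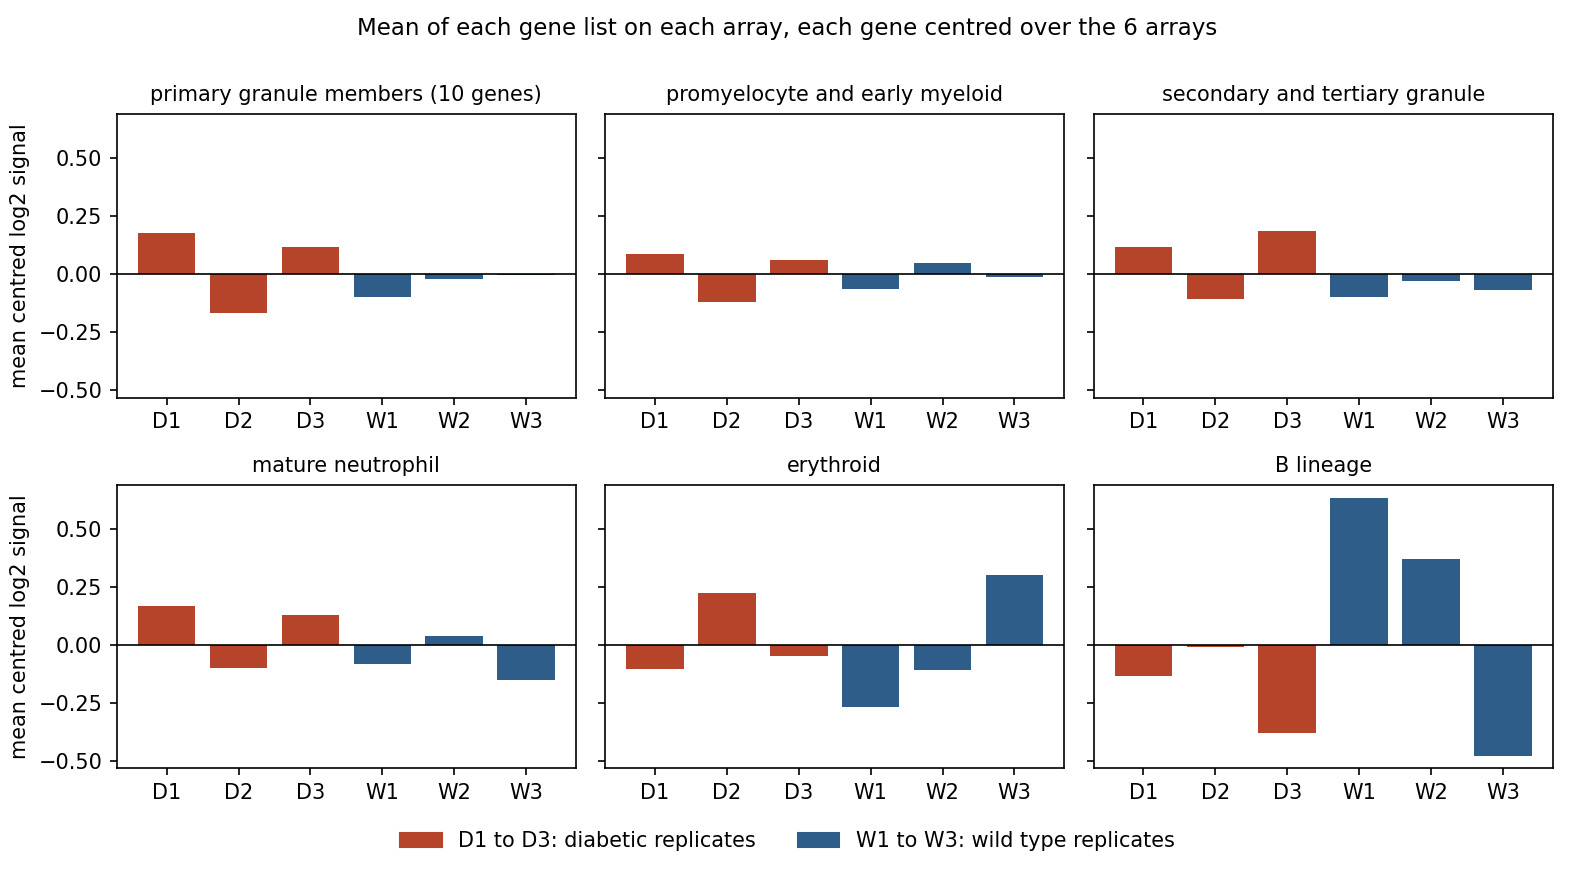
Mean of 6 gene lists on each array, with each gene centred over the 6 arrays (bars from 0, diabetic arrays D1 to D3 left, wild type arrays W1 to W3 right). The primary granule genes are at -0.17 on diabetic replicate 2, where the erythroid markers are at 0.22.

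To see how the members varied among themselves, the other 5 were set against the mean of the 5 enzymes Mpo, Elane, Prtn3, Ctsg and Prss57 on the same array. That mean was 12.30, 11.97 and 12.27 in diabetic marrow and 12.09, 12.23 and 12.26 in wild type marrow. Only the shift of such a difference between groups has a meaning, since probe sets differ in brightness. Relative to the enzymes, Serpinb1a shifted by 0.34 and did not overlap, with -0.67, -0.55 and -0.53 in diabetic marrow against -0.74, -1.03 and -1.02 in wild type marrow. Ms4a3, which overlapped on its own signal, shifted by 0.25 without overlap, with -1.22, -1.38 and -1.19 in diabetic marrow against -1.53, -1.53 and -1.49 in wild type marrow. Of the 12024 genes tested other than the enzymes, 3.90% did not overlap after the same subtraction, 2.69% with diabetic marrow above. Gfi1 shifted by 0.24 and Cebpe by 0.13, both with overlap. Fcnb followed the enzymes, with a shift of -0.0069 and values of -0.42, -0.48 and -0.46 in diabetic marrow against -0.39, -0.49 and -0.46 in wild type marrow. The shifts lay near the log2 changes of the genes themselves, such as 0.33 for Serpinb1a and 0.24 for Ms4a3. They are therefore not a separate result. The split into enzymes and others was drawn after the values were seen and is given as a description, with no test.

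**Figure D4:**
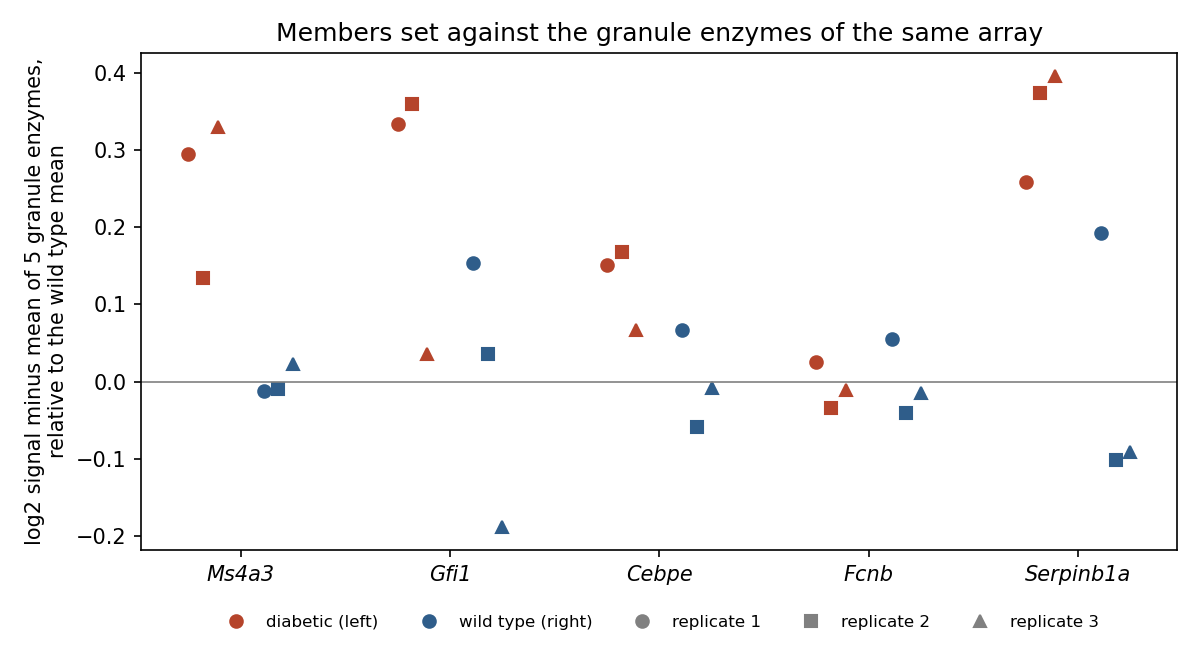
Log2 signal of 5 genes minus the mean of the 5 granule enzymes on the same array, drawn relative to the wild type mean of each gene, diabetic left and wild type right, with marker shape for the replicate. Serpinb1a and Ms4a3 have separate groups, and Fcnb shifts by -0.0069.

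Genes whose array pattern was most like the mean pattern of the members were looked for among the 12019 other genes tested. The measure was the root mean square difference between centred log2 values over the 6 arrays. The nearest were Rtn4r (0.019), Mtus1 (0.020), Abtb2 (0.025), Tmem216 (0.028) and Rab3d (0.032), with log2 changes from 0.07 for Mtus1 to 0.11 for Rab3d, that of Mtus1 turning to -0.0059 without diabetic replicate 1. Among the members, Ctsg (0.032) and Cebpe (0.036) lay nearest to their mean and Gfi1 (0.15) and Serpinb1a (0.15) farthest. With 6 arrays and so many genes, near matches are common, and they are given as a description.

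Several members lie in gene clusters. Elane and Prtn3 are next to each other on chromosome 10 in the RefSeq gene order, and 4 protein-coding genes lie between Prtn3 and Prss57. The gene before Prtn3, Plppr3, had log2 signals of 9.23, 9.03 and 9.27 in diabetic marrow, against 9.06, 9.11 and 9.13 in wild type marrow. It was also lowest on diabetic replicate 2. The neighbours of Prss57, Fstl3 and Palm, had log2 changes of 0.02 ± 0.05 and 0.16 ± 0.07. Next to Ctsg on chromosome 14 lie Mcpt8, a basophil protease, at -0.18 ± 0.10, and Gzme, a granzyme below the level filter, at 0.01 ± 0.12. None of these passed, with BH-adjusted p values in limma of 0.683 for Palm and 0.813 for Mcpt8.

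Other genes of the primary granule and its assembly gave no call among 16 tested in limma after BH adjustment, with 1 higher and 2 lower at an unadjusted p under 0.05. Their median change was 0.034, with 10 above 0 and 6 below. Ctsc, the dipeptidase that activates elastase, proteinase 3 and cathepsin G, had log2 signals of 11.22, 11.07 and 11.27 in diabetic marrow, against 11.43, 11.34 and 11.44 in wild type marrow. The groups did not overlap, with a log2 change of -0.22 ± 0.07 and a BH-adjusted p of 0.553 in limma. Npc2, a cholesterol carrier of lysosomes, was at -0.14 ± 0.06 and Cd63, a tetraspanin of the granule membrane, at 0.19 ± 0.08. The activating enzyme Ctsc had a change below 0 and the inhibitor Serpinb1a one above 0, and neither passed. A link between them was not tested. Of 12 other protease inhibitors, 6 passed the level filter, 2 of them above 0 and 4 below. The rest fell below it, among them Stfa2 and Stfa3, whose values are given further on.

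Promyelocyte and early myeloid genes gave no call among 21 tested in the same test, 1 higher and 1 lower at an unadjusted p under 0.05, and their median change was 0.044. Calr, a chaperone that folds myeloperoxidase, was at -0.20 ± 0.06. Chd7, a chromatin remodeller with 30 probe sets, was at 0.33 ± 0.12 and at 0.28 with the mean of its sets, and Clec12a, an inhibitory lectin receptor, was at 0.13 ± 0.06. Transcription factors of the granulocyte and monocyte fates gave no call among 20, with 3 higher and 0 lower unadjusted, 16 above 0 and a median change of 0.084. Id2, an inhibitor of basic helix-loop-helix factors, was at 0.31 ± 0.08, Trib1, a pseudokinase that marks C/EBP alpha for destruction, at 0.30 ± 0.12, and Spi1, which encodes PU.1, at 0.20 ± 0.08. The diabetic values of Spi1 were 12.46, 12.23 and 12.44, against 12.14, 12.22 and 12.17 in wild type marrow, so the groups were separated by a small gap.

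Receptors of myeloid progenitors gave no call among 10, with 3 higher and 0 lower unadjusted and a median change of 0.0014. Flt3 and Kit, receptor kinases of early progenitors, were at 0.23 ± 0.06 and 0.24 ± 0.08, and Fcgr3, an immunoglobulin G receptor, at 0.14 ± 0.06. The next granules gave 1 call among 20 genes. Chil3, a chitinase-like protein made by late neutrophil precursors, had log2 signals of 11.54, 11.19 and 11.62 in diabetic marrow, against 10.62, 10.44 and 10.39 in wild type marrow. It rose by 0.96 ± 0.12, with a BH-adjusted p of 0.0203 in limma, a call lost when diabetic replicate 1 or 3 or wild type replicate 2 was left out and with the replicate number as a block (BH-adjusted p of 0.0797). The list median was 0.062, the same as that of the members, with 16 above 0 and 4 below, and 3 higher and 0 lower at an unadjusted p under 0.05. Mmp25, a membrane-bound metalloproteinase, was at 0.28 ± 0.09, Orm1, an acute-phase protein, at 0.33 ± 0.13 and Anxa1, annexin A1, at 0.17 ± 0.09.

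Relatives of the members that passed the level filter gave no call in the same test. Among 6 of 12 protease inhibitors that passed it, with a median change of -0.052, Slpi, a secreted inhibitor of elastase, was at 0.17 ± 0.10, Serpinb2 at 0.31 ± 0.20 and Cstb, cystatin B, at -0.13 ± 0.11. Among 6 serine proteases of other blood cells, with a median of -0.0039, the granzymes Gzmb and Gzmk were at 0.14 ± 0.08 and 0.11 ± 0.13. Fcna, ficolin A of macrophages, was at -0.23 ± 0.08, and Epx, the eosinophil relative of Mpo, at -0.07 ± 0.10. Among the genes that passed the filter, these lists gave 0 at an unadjusted p under 0.05 for the inhibitors and the proteases, and 1, Fcna, for the 2 peroxidases and ficolins. Below the filter, 2 inhibitors of cysteine proteases had an unadjusted p under 0.05 in the fit of all 19938 genes, as did 5.90% of those genes. These are the stefins Stfa2 and Stfa3, named here after their values were seen. Stfa2 had log2 signals of 8.03, 7.62 and 8.14 in diabetic marrow, against 6.54, 7.04 and 6.54 in wild type marrow. In that fit, where 0.286% of genes passed, Stfa2 rose by 1.22 ± 0.17 with a BH-adjusted p of 0.0325 in limma. Stfa3 was at 0.70 ± 0.18 with a BH-adjusted p of 0.444 in limma. The stefin A genes are close copies of each other, so their probe sets may share signal and the values are uncertain.

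Markers of the cell types of marrow were compared as lists, and some of them, such as Vpreb1 of the B lineage, fell below the level filter. Of 12 mature neutrophil markers, 10 were tested and none passed. Their median change was 0.081, with 7 above 0 and 3 below. Their mean log2 signals were 12.03 to 12.30 on the diabetic arrays and 11.98 to 12.17 on the wild type arrays. The smallest unadjusted p values among them were those of Il1b, the cytokine interleukin 1 beta, at 0.58 ± 0.21, Trem1, an activating receptor, at 0.32 ± 0.12, and Retnlg, a resistin-like protein, at 0.14 ± 0.08. Erythroid markers (9 of 12 tested, none called) had a median change of 0.036, with 5 above 0 and 4 below. They ranged from 11.97 to 12.30 on the diabetic arrays and from 11.81 to 12.38 on the wild type arrays. Car1, carbonic anhydrase 1, was at 0.27 ± 0.08, Tfrc, the transferrin receptor, at 0.16 ± 0.16 and Alas2, the first enzyme of erythroid heme synthesis, at 0.04 ± 0.08, the last below 0 without diabetic replicate 2. B lineage markers (10 of 13 tested, none called) had a median change of -0.36, with all 10 below 0, and ranged from 10.33 to 10.71 on the diabetic arrays and from 10.24 to 11.35 on the wild type arrays. The recombinase gene Rag1 was at -0.60 ± 0.21, Dntt, a polymerase that adds bases at the joints, at -0.47 ± 0.25 and Blnk, an adaptor of the B cell receptor, at -0.47 ± 0.26. Wild type replicate 3 was the lowest array for the B lineage list, at 10.24. Without it Rag1 passed, at -0.89 with a BH-adjusted p of 0.0117 in limma, as did 69 of all 12029 genes.

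Monocyte and macrophage markers (11 of 12 tested) had 1 call, Vcan, versican, at 1.44 ± 0.22 with a BH-adjusted p of 0.0483 in limma, a call lost in 8 of 14 alternatives, and a median of -0.0087, with 5 above 0 and 6 below. At an unadjusted p under 0.05, 2 were higher, Vcan and F13a1, coagulation factor XIII A, at 0.28 ± 0.10, and 5 were lower. Among those lower, the smallest unadjusted p values were those of C1qb, of complement, Mrc1, the mannose receptor, and Cd68, of lysosomes. These 3 were at -0.62 ± 0.12, -0.34 ± 0.09 and -0.25 ± 0.07 and did not pass. Adgre1 and Cx3cr1 of the same list were above 0, at 0.27 ± 0.14 and 0.20 ± 0.09, and did not pass either. Stem and early progenitor markers had a median change of 0.080, and beside Flt3 and Kit their smallest unadjusted p was that of Gata2, a transcription factor, at 0.10 ± 0.07. Eosinophil, basophil and mast cell markers had a median of -0.076, with Il5ra, the interleukin 5 receptor, at 0.31 ± 0.11 and Fcer1a, of the immunoglobulin E receptor, at -0.38 ± 0.23. T and NK cell markers had a median of -0.058, with Cd4 at -0.53 ± 0.09 (BH-adjusted p of 0.0974 in limma), Il2rb at -0.23 ± 0.12 and Ncr1 at -0.12 ± 0.13. Cd4 passed without wild type replicate 3, at -0.42 with a BH-adjusted p of 0.0403 in limma. Cycling cell markers had a median of -0.062, with the helicase subunits Mcm5 and Mcm3 at -0.15 ± 0.08 and -0.11 ± 0.11 and Tyms, thymidylate synthase, at -0.16 ± 0.14. Mcm3 and Tyms were above 0 without wild type replicate 3. Stroma, fat and muscle markers had a median of 0.011, with the fat genes Lpl and Fabp4 at 0.31 ± 0.10 and 0.23 ± 0.14 and the endothelial Pecam1 at -0.11 ± 0.08. With all 6 arrays, none of these last 5 lists held a call.

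Limits concern the weights and the arrays. With array weights, whose estimation stopped before convergence, 4 members passed, Serpinb1a, Ms4a3, Gfi1 and Cebpe, but so did 1878 of all 12029 genes. Without diabetic replicate 2 the changes of Mpo, Elane, Prtn3 and Fcnb turned to 0.04, 0.06, 0.04 and 0.10, and no member passed.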

How the data were processed

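The 6 arrays, 3 diabetic and 3 wild type, were grouped by the sample titles. The authors deposited log2 signals per probe set, for which the submitters' processing notes, per the labels, name RMA and the Affymetrix Expression Console. RMA puts all arrays on 1 distribution, so a shift shared by most genes cannot be seen. Neither a software version nor a genome build is given in the sources used here.

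Of 35556 probe sets, 21789 had 1 gene symbol, 1621 several and 12146 none in the platform annotation. Per gene, the set with the highest mean over the 6 arrays was kept. Genes with a mean log2 signal of at least 7.50, the 40th percentile of named probe sets, were tested, 12029 in all. Diabetic and wild type arrays were compared in limma 3.58.1 (functions lmFit and eBayes, under R 4.3.3) across all genes, with Benjamini-Hochberg adjustment and a threshold of 0.05. The direction is diabetic minus wild type. Errors of changes are standard errors of that fit, and the fit was tested on simulated data. Python 3.11.15 and matplotlib 3.10.9 made the figures.

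Members and lists were chosen with earlier results of these data known. Named genes are the members, in every list, markers included, genes past the threshold and up to 3 further genes with the smallest unadjusted p, the neighbours of the serine protease genes, and the 5 genes nearest in array pattern. Serpinb1b, Serpinb1c, Stfa2, Stfa3, F13a1, Adgre1, Cx3cr1, the promoters shown and the grouping into enzymes and others were chosen after values were seen. Alternatives were other level filters, median centring, a further quantile normalization, averaging all probe sets of a gene, trend and robust eBayes, array weights, a replicate block, other thresholds and leaving out each array. RefSeq GRCm38.p6 gave promoters, chromosomes and gene order.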

Additional observations from a re-analysis of the deposited data

How the results depend on the processing

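In limma, no member passed in 13 of 14 alternative fits, those leaving out 1 array included, or at a BH-adjusted p of 0.1. The exceptions were array weights, with 4 members and 1878 of all genes, and an unadjusted p of 0.05, with 1 member and 864 of all genes. The weights ran from 0.25 for wild type replicate 3 to 11.7 for wild type replicate 2. All arrays gave 52 genes past the threshold, and leaving out 1 gave 3 to 69, with 5, 3 and 12 without diabetic replicates 1, 2 and 3 and 13 without wild type replicate 2. The replicate block gave 0 members and 2 genes. Deviations from the group means correlated across genes at 0.33, -0.043 and -0.055 for arrays with the same number in the titles. For arrays with other numbers they ran from -0.31 to 0.27. Deviations within a group of 3 sum to 0, so these values cannot decide whether the numbers pair the arrays. The call on Chil3 was lost under the block. Leaving out 1 array, the median change of the members lay between -0.0080 and 0.16, that of Mpo between -0.070 and 0.040, Elane -0.12 and 0.063, Prtn3 -0.21 and 0.036, Fcnb -0.097 and 0.10, Prss57 -0.068 and 0.11, Gzmk -0.029 and 0.12, Alas2 -0.032 and 0.080, Mcm3 -0.18 and 0.0076, Tyms -0.28 and 0.011, and Mtus1 -0.0059 and 0.18. Ctsg, Cebpe, Gfi1, Ms4a3 and Serpinb1a stayed above 0 in all 14 alternative fits. Some of these fits cannot move a member's change and say nothing on its direction. They are the other level filters, the averaging of probe sets, trend and robust eBayes and the replicate block. Leaving out 1 array, Ctsg lay between 0.032 and 0.22, Cebpe 0.043 and 0.20, Gfi1 0.12 and 0.29, Ms4a3 0.16 and 0.41, and Serpinb1a 0.26 and 0.42, Ctsg and Cebpe lowest without diabetic replicate 1 and highest without diabetic replicate 2. The values above 0 of Mpo, Elane and Prtn3 came without diabetic replicate 2. Fcnb was at 0.079 with array weights and 0.0064 without wild type replicate 3. Prss57 was at -0.0032 with quantile normalization and -0.0031 with median centring. It was also below 0 without diabetic replicate 1 or 3 or wild type replicate 1 or 2. Gzmk was at -0.19 and Mcm3 at 0.0020 with array weights. The cause of these turns was not tested. The members stood at the 73.2 to 99.6 percentiles of named probe sets, and there were 3 arrays per group.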
